A study of Mus musculus with 16 samples.

Results

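The genes described here are 10 genes of MHC class I heavy and light chains, of peptide transport and loading, and of their transactivator, out of 55573 genes counted. They are Nlrc5, B2m, H2-K1, H2-D1, H2-Q2, H2-Q6, H2-T23, Tap1, Tap2 and Tapbp, chosen as a fixed list of symbols and matched to the Ensembl identifiers of the count table. The list was chosen with earlier results of these data known. All 10 were found and all 10 passed the filter on low counts, as did 20822 genes in total.

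Class I molecules carry peptides from inside the cell to its surface, where CD8 T cells and natural killer cells read them. Peptides cut by the proteasome are pumped into the endoplasmic reticulum by the transporter of Tap1 and Tap2, and tapasin, the product of Tapbp, holds the empty molecule beside the transporter while it is loaded. The molecule itself pairs a heavy chain of an H2 gene with the light chain encoded by B2m. NLRC5 is induced by interferon-gamma and is recruited to class I promoters by proteins bound at the X and Y boxes.

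Whole epididymal white fat (eWAT) was sequenced from 4 male mice in each of 4 groups. These were LRG1 mice at week 7, eGFP mice at week 7, LRG1 mice at week 10 and eGFP mice at week 10. Weeks are weeks of age and not weeks after the virus, which was given at a younger age than either. All mice were homozygous for the db mutation of the leptin receptor gene Lepr on the C57BLKS/J background and ate chow, so that the eGFP mice are diabetic and obese controls and no lean mouse was compared. LRG1 mice had received AAV8-LRG1-FL, which carries FLAG-tagged LRG1, a secreted glycoprotein, and eGFP mice AAV8-eGFP from the same vector backbone with the CB7 promoter, which is active in many cell types. Virus was assigned by cage according to the methods and the cage of each mouse is not given, so cage and treatment cannot be told apart. In whole tissue, fewer cells of a type and less RNA per cell cannot be told apart either.

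Libraries held 45376227 to 67539937 counts. Lrg1, which checks the labels, was at 286 to 624 CPM (counts scaled to a common library size after TMM adjustment) in the LRG1 libraries and at 86.2 to 115 CPM in the eGFP libraries. The 6 adipocyte markers were expressed in all groups, and the summed level of 4 epididymis markers was at most 1.25 CPM. Within the eGFP group at week 10, the summed level of 5 pan-leukocyte markers was 1011, 415, 1049.6 and 516 CPM in replicates 1 to 4, so that replicates 1 and 3 stood apart from replicates 2 and 4, and the counts of calls between LRG1 and eGFP mice at week 10 are given with and without eGFP replicates 1 and 3. Other cell types split the same libraries, the other way. Adipocyte marker sums were 3569, 7670, 4101 and 8397 CPM in replicates 1 to 4, and endothelial sums 154, 306, 189 and 290 CPM. Mesothelial sums were 41.3, 93.1, 26.6 and 92.5 CPM. The T cell sums, at 5.27, 5.09, 6.43 and 6.64 CPM, did not split in this way. Mitochondrial ribosomal RNA took 27.1 to 30.4% of the counts in LRG1 mice at week 7 and 24.1 to 25.8% in eGFP mice at week 7. With all mitochondrially encoded genes removed from the table, the same calls were made for the 10 genes in each comparison.

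In the GRCm38 build, 8 of the 10 genes lie on chromosome 17: Tapbp from 33915899 to 33929292, H2-K1 from 33996017 to 34000347, Tap1 from 34187553 to 34197225, Tap2 from 34203527 to 34216321, H2-D1 from 35262730 to 35267499, H2-Q2 from 35342242 to 35346762, H2-Q6 from 35424850 to 35430055 and H2-T23 from 36029773 to 36032855. H2-K1 and H2-T23 are on the minus strand and the others on the plus strand. B2m lies on chromosome 2 from 122147686 to 122153083, and Nlrc5 on chromosome 8 from 94434356 to 94527272, both on the plus strand. The reference is C57BL/6, whose H2 haplotype differs from that of C57BLKS in all 4 groups, and the H2 heavy chain genes are close copies of each other. Reads of K, D, Q and T genes may therefore have been lost or shared between copies, and whether reads with several matches were counted is not given in the sources used here. The levels of single heavy chain genes are uncertain for that reason.

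Promoter windows of 250 bases before to 50 bases after a start site were read from RefSeq for GRCm38.p6, where they were found for 8 of the 10 genes (B2m, H2-K1, H2-D1, H2-Q2, H2-Q6, H2-T23, Tap1 and Tapbp). Short motifs known from class I promoters were searched on both strands: the kappa B site GGGATTCCC, the interferon-stimulated response element (ISRE) as TTTCNNTTC or, in a longer form, as TTTC and TTTC with 2 free bases between them, the gamma-activated site TTCNNNGAA, the core of the X2 box TGACG, and the Y box CCAAT. The windows below are first those of the light chain and of a classical heavy chain. Then come the heavy chain whose difference changed with age at the smallest p of all genes, and the transporter gene with the largest difference of the 10. These last were picked by those values, and no link between a motif and a difference was tested. Capitals mark a match to one of these motifs on either strand, and the sequences are those of C57BL/6, which may differ from the C57BLKS mice.
B2m: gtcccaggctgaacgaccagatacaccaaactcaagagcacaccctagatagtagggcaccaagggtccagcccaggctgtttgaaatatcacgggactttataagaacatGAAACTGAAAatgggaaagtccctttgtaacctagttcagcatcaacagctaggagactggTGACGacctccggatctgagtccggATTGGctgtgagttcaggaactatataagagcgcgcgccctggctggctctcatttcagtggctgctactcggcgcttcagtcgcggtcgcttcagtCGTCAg
H2-K1: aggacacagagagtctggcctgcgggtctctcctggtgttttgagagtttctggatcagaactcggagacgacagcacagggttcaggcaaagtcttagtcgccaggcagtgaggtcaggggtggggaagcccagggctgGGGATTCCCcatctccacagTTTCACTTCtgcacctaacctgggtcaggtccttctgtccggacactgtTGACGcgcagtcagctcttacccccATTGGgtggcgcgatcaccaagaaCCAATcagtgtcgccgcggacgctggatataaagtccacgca
H2-Q6: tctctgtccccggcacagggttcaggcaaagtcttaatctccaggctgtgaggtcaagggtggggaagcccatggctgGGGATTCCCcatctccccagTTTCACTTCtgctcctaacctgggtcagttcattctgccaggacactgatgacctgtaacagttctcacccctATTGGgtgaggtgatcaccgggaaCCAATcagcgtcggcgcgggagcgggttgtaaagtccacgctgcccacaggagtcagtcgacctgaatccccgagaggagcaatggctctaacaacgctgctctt
Tap1: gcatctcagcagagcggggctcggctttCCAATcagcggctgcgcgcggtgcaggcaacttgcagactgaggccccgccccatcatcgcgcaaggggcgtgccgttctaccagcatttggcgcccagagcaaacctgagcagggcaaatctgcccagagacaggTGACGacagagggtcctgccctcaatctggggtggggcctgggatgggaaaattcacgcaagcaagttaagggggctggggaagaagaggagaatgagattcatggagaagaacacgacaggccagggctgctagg

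The B2m window is chr2:122147437-122147736 on the plus strand, the H2-K1 window chr17:34000298-34000597 on the minus strand, the H2-Q6 window chr17:35424600-35424899 on the plus strand and the Tap1 window chr17:34187306-34187605 on the plus strand. H2-K1 has 2 windows in the table, and the one whose start site is that of the Ensembl gene is printed. All 8 windows held a Y box, as did 37.4% of 32851 windows of the same length. The kappa B site was matched in H2-K1, H2-D1 and H2-Q6, against 0.353% of all windows, and the shorter ISRE in the same 3 genes, against 7.52%. The longer ISRE was matched in B2m and H2-T23 (3.44% of all windows), and the X2 core in B2m, H2-K1, H2-D1 and Tap1 (20.8%). The gamma-activated site was matched in 0 of the 8 windows, against 8.30% of all windows. Tap1 stands head to head with Psmb9, an immunoproteasome subunit, and their windows share 275 of their bases. A match is a string of letters and not a bound site, and a missing match says only that these letters are not in the window.

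**Figure D1:**
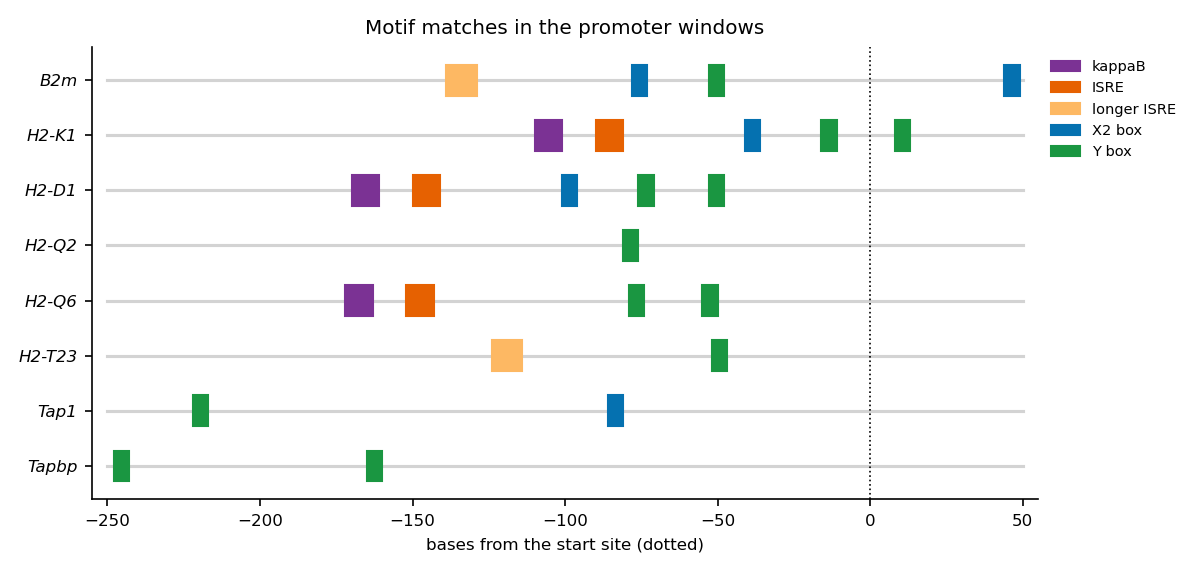
Positions of motif matches in the promoter windows of 8 genes, in bases from the start site, with coloured blocks for the motifs. H2-K1, H2-D1 and H2-Q6 held a kappa B site followed by an ISRE, B2m and H2-T23 the longer ISRE, and H2-Q2, Tap1 and Tapbp neither.

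At week 7 all 10 genes were lower in LRG1 mice than in eGFP mice, from Tapbp at 1.63-fold to Tap1 at 6.78-fold lower. Nlrc5 itself was 3.10-fold lower, the classical heavy chains H2-K1 and H2-D1 2.96-fold and 3.002-fold lower, and their light chain B2m 1.77-fold lower. At week 10, 7 of the 10 were still called, between 1.35-fold and 1.92-fold lower, while B2m, Tap2 and Tapbp were not, and for 6 genes the change of the difference between the weeks was itself called. With age, 6 of the 10 genes fell in eGFP mice and none was called in LRG1 mice.

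These calls were made with edgeR's quasi-likelihood test at a Benjamini-Hochberg adjusted p below 0.01 over all 20822 genes, from 1 fit of the 16 libraries. At week 7 the 10 of 10 lower calls stand beside 10.7% of all tested genes called lower, and the median log2 fold change of the 10 was -1.59, beside 0.01 for all genes. For each of the 10, the 4 LRG1 libraries lay below all 4 eGFP libraries, as in 19.4% of all tested genes. At week 10 the 7 of 10 lower calls stand beside 5.24% of all genes called lower, and the median log2 fold change was -0.49. The libraries of 8 genes were all lower in LRG1 mice at week 10 (10.1% of all genes), and those of B2m and Tapbp overlapped.

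The count of calls at week 10 changed with the libraries fitted. Of the 7 genes called there remained 1 (H2-D1) when LRG1 replicate 4 of week 10 was left out, and 3 without LRG1 replicate 3, without eGFP replicate 1 or without eGFP replicate 3. None was called without eGFP replicates 1 and 3 together, an alternative chosen after seeing the data, nor when only the 8 libraries of week 10 were fitted, where the same 7 had adjusted p of 0.023 to 0.046 and thus an unadjusted p below 0.05. With only those 8 libraries, 5884 of all 19128 genes had such an unadjusted p, in either direction. In that fit of 8 libraries the log2 fold change was -0.46 for Nlrc5, -0.64 for H2-K1, -0.70 for H2-D1 and -0.93 for Tap1. Without eGFP replicates 1 and 3, the log2 fold change was -0.48 for Nlrc5 (adjusted p = 0.033), -0.62 for H2-D1 (adjusted p = 0.0104) and -1.05 for Tap1 (adjusted p = 0.0107), all from edgeR, and 8 of the 10 genes had an unadjusted p below 0.05. Without that pair of libraries, 4126 of all 21872 genes had such a p, in either direction. Over all genes the lower calls at week 10 fell too, from 1092 of 20822 in the fit of 16 libraries. They were 10 of 19128 with only the 8 libraries, 74 of 21872 without the pair and 125 of 21300 without LRG1 replicate 4. Lower calls numbered 196 of 21278 without LRG1 replicate 3, 273 of 21203 without eGFP replicate 1 and 291 of 21314 without eGFP replicate 3.

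**Figure D2:**
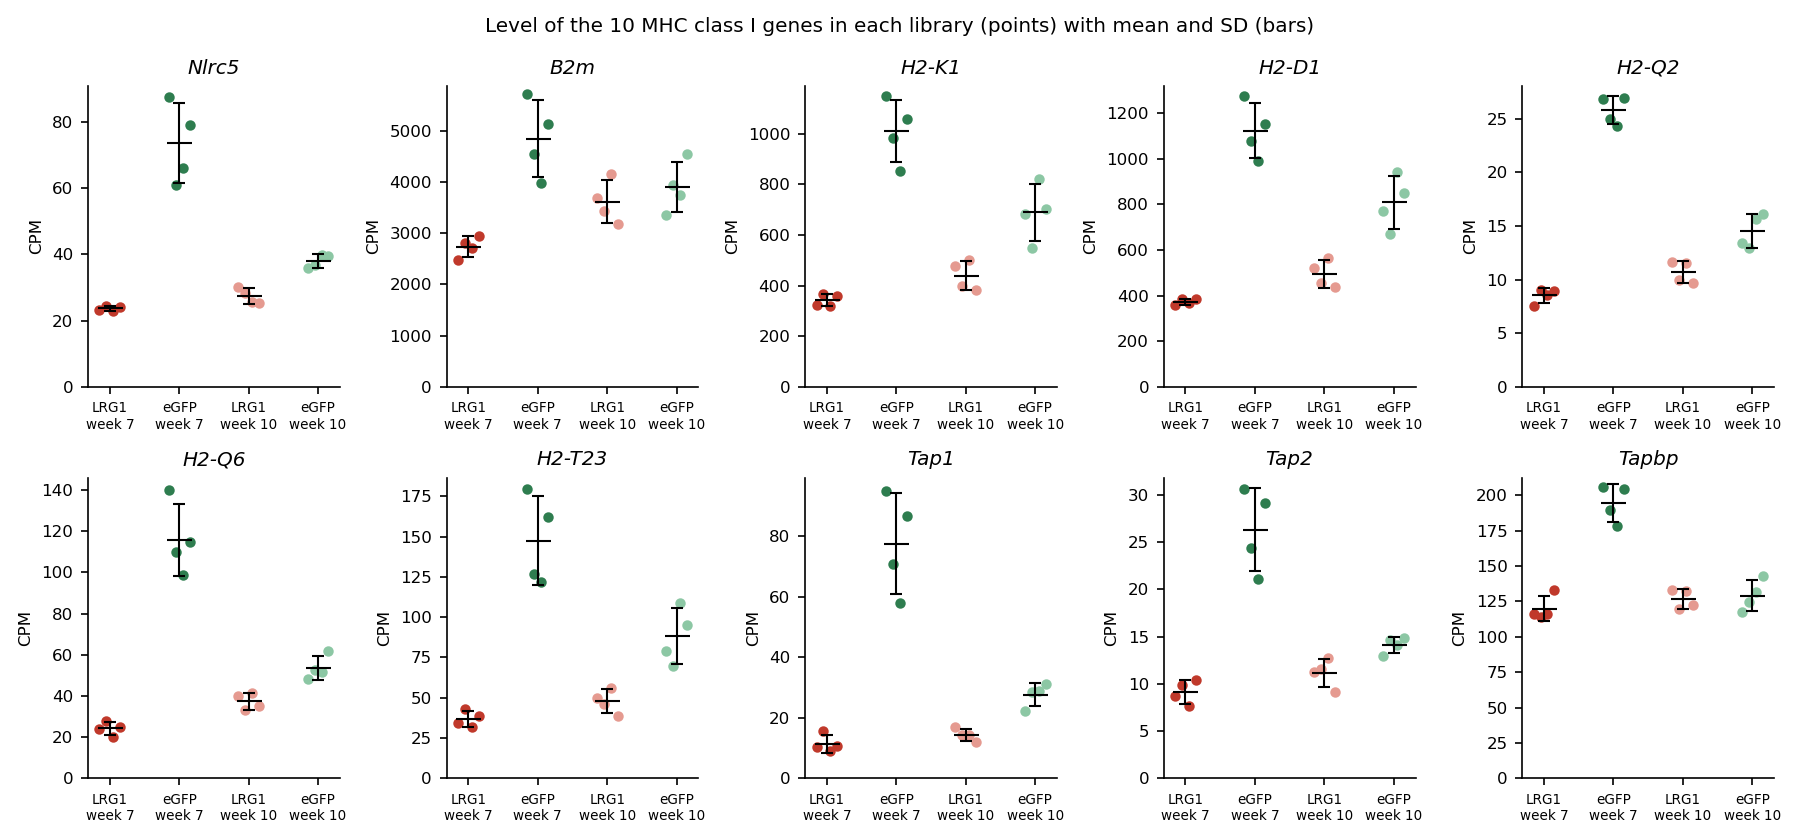
CPM of the 10 genes in each of the 16 libraries (points), with the mean and SD of 4 mice (bars), by group. At week 7 the LRG1 points lay below the eGFP points for every gene, and at week 10 those of B2m and Tapbp overlapped.

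Nlrc5, the transactivator, was at 23.3, 24.4, 22.8 and 24.3 CPM in LRG1 mice at week 7, against 87.6, 61.1, 66.2 and 79.1 CPM in eGFP mice. The lowest eGFP library lay far above the highest LRG1 library. This gave a log2 fold change of -1.63 (SE 0.10, adjusted p = 5.0e-08). At week 10 it was at 30.3, 28.3, 25.6 and 25.2 CPM in LRG1 mice, against 35.9, 36.7, 39.9 and 39.5 CPM in eGFP mice. All LRG1 libraries were still below all eGFP libraries, by less, with a log2 fold change of -0.47 (SE 0.10, adjusted p = 0.0044).

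B2m, the light chain that every classical class I molecule shares, was at 2475, 2809, 2712 and 2954 CPM in LRG1 mice at week 7, against 5714, 4548, 3985 and 5143 CPM in eGFP mice. Here too the groups were apart, with a log2 fold change of -0.82 (SE 0.13, adjusted p = 2.5e-04). In the older mice it was at 3695, 3444, 4154 and 3178 CPM in LRG1 mice, against 3362, 3934, 3756 and 4538 CPM in eGFP mice. These ranges overlapped over most of their length. By edgeR the log2 fold change was -0.11 (SE 0.13, adjusted p = 0.58), with a normal 95% interval from -0.36 to 0.14.

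H2-K1, one of the classical heavy chains, was at 325, 367, 319 and 357 CPM in LRG1 mice at week 7, against 1148, 985, 855 and 1057 CPM in eGFP mice. Week 10 libraries held it at 476, 398, 502 and 385 CPM in LRG1 mice, against 685, 548, 824 and 703 CPM in eGFP mice. The groups did not overlap at either week. Its log2 fold change was -1.56 (SE 0.13, adjusted p = 6.1e-07) at week 7, and it stood at -0.65 (SE 0.13, adjusted p = 0.0033) at week 10. Among the eGFP libraries of week 10, replicate 3 was the highest and replicate 2 the lowest.

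H2-D1, the other classical heavy chain among the 10 genes, was at 358, 386, 368 and 383 CPM in LRG1 mice at week 7, against 1272, 1076, 988 and 1150.0 CPM in eGFP mice. By week 10 it was at 522, 453, 565 and 437 CPM in LRG1 mice, against 772, 671, 942 and 850.5 CPM in eGFP mice. It followed H2-K1 library by library: the ratio of H2-K1 to H2-D1 counts stayed between 0.817 and 0.952 in all 16 libraries. The log2 fold change was -1.59 (SE 0.12, adjusted p = 1.8e-07) at week 7, and it stood at -0.71 (SE 0.11, adjusted p = 0.0015) at week 10, the smallest adjusted p of the 10 genes at that week.

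H2-Q6, a gene of the Qa-2 region that encodes a non-classical heavy chain, was at 24.2, 27.7, 19.995 and 25.05 CPM in LRG1 mice at week 7, against 140.1, 110.0, 98.7 and 115 CPM in eGFP mice. At week 10 it was at 40.1, 33.1, 41.7 and 34.9 CPM in LRG1 mice, against 48.3, 52.5, 51.8 and 61.7 CPM in eGFP mice. The gap between the groups was wide at week 7 and narrow at week 10. This gave a log2 fold change of -2.26 (SE 0.12, adjusted p = 3.2e-08) at week 7, and it stood at -0.52 (SE 0.12, adjusted p = 0.0075) at week 10, and the call at week 10 was lost when any one of 7 of the 8 libraries of that week was left out, with log2 fold changes of -0.44 to -0.57 in those fits.

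H2-Q2, from the same region, was at 7.54, 9.05, 8.59 and 8.98 CPM in LRG1 mice at week 7, against 26.8, 24.996, 24.4 and 27.0 CPM in eGFP mice. In the older mice it was at 11.6, 9.97, 11.6 and 9.73 CPM in LRG1 mice, against 13.4, 12.9, 15.6 and 16.1 CPM in eGFP mice. The groups did not overlap at either week. By edgeR the log2 fold change was -1.59 (SE 0.09, adjusted p = 5.0e-08) at week 7, and it stood at -0.44 (SE 0.09, adjusted p = 0.0048) at week 10, where the call was lost without LRG1 replicate 2, 3 or 4 or eGFP replicate 1 or 3.

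H2-T23, the heavy chain of Qa-1, which presents leader peptides of other class I chains to the CD94/NKG2 receptors, was at 34.1, 43.1, 31.9 and 38.8 CPM in LRG1 mice at week 7, against 179, 127, 122 and 162 CPM in eGFP mice. Week 10 libraries held it at 49.97, 46.4, 56.2 and 38.4 CPM in LRG1 mice, against 79.0, 69.5, 109 and 95.1 CPM in eGFP mice. No LRG1 library reached an eGFP library of its week. Its log2 fold change was -1.996 (SE 0.16, adjusted p = 6.0e-07) at week 7, and it stood at -0.89 (SE 0.16, adjusted p = 0.0025) at week 10.

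Tap1, one subunit of the peptide transporter, had the largest fold difference of the 10 at both weeks. It was at 10.3, 15.7, 8.97 and 10.8 CPM in LRG1 mice at week 7, against 95.1, 70.7, 57.9 and 86.6 CPM in eGFP mice. By week 10 it was at 17.04, 14.3, 14.2 and 11.98 CPM in LRG1 mice, against 22.3, 28.4, 28.8 and 31.1 CPM in eGFP mice. The log2 fold change was -2.76 (SE 0.19, adjusted p = 1.0e-07) at week 7, and it stood at -0.94 (SE 0.18, adjusted p = 0.0030) at week 10.

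Tap2, the other subunit of the transporter, was at 8.74, 9.87, 7.60 and 10.4 CPM in LRG1 mice at week 7, against 30.6, 24.4, 21.1 and 29.2 CPM in eGFP mice. At week 10 it was at 11.2, 11.6, 12.7 and 9.15 CPM in LRG1 mice, against 12.95, 14.6, 14.1 and 14.9 CPM in eGFP mice. The groups did not overlap at either week. This gave a log2 fold change of -1.52 (SE 0.13, adjusted p = 8.3e-07) at week 7, and it stood at -0.34 (SE 0.13, adjusted p = 0.066, 95% interval -0.59 to -0.09) at week 10, which did not pass.

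Tapbp, which encodes tapasin, had the smallest difference of the 10 at week 7. It was at 116, 114, 116 and 133 CPM in LRG1 mice at week 7, against 206, 189.8, 178 and 204 CPM in eGFP mice. In the older mice it was at 133, 119.6, 132 and 122 CPM in LRG1 mice, against 117, 125, 131 and 143 CPM in eGFP mice, and the groups overlapped. By edgeR the log2 fold change was -0.70 (SE 0.08, adjusted p = 1.5e-05) at week 7, and it stood at -0.03 (SE 0.08, adjusted p = 0.84, 95% interval -0.18 to 0.13) at week 10.

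**Figure D3:**
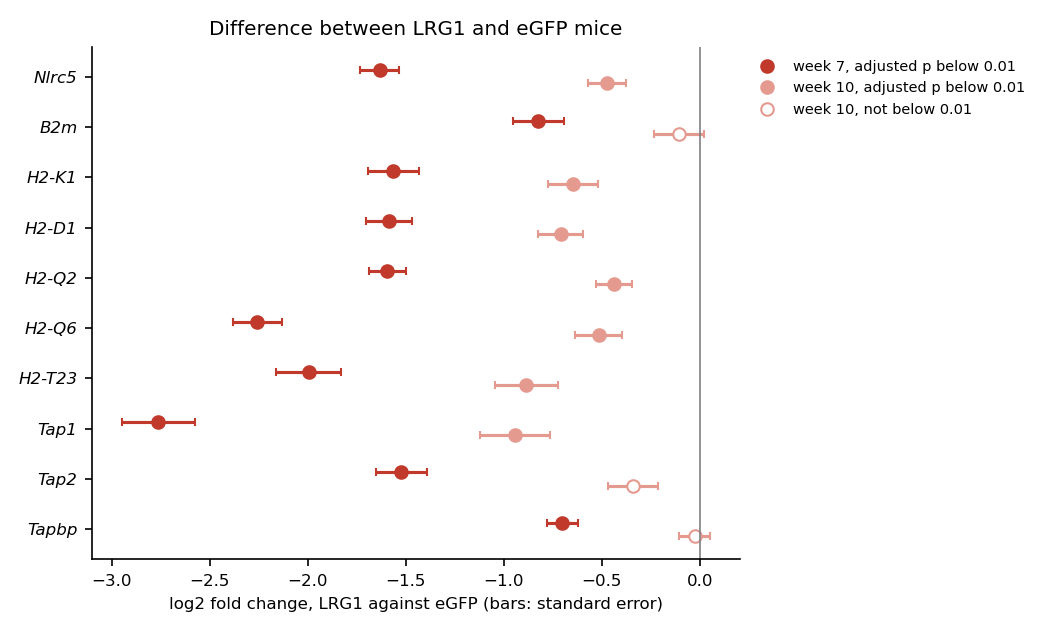
Log2 fold change of LRG1 against eGFP mice (points) with its standard error (bars) for the 10 genes at weeks 7 and 10, where filled points had an adjusted p below 0.01. Week 7 values ran from -2.76 for Tap1 to -0.70 for Tapbp, and week 10 values from -0.94 for Tap1 to -0.03 for Tapbp.

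Levels can be compared between genes only per length, as CPM per kilobase of summed exon length. On that scale B2m was far above all others, at 3183 ± 234 in LRG1 mice and 5637 ± 868 in eGFP mice at week 7 (SD, n = 4). H2-D1 and H2-K1 came next, at 145 ± 5.07 and 116 ± 8.11 in LRG1 mice and at 435 ± 46.6 and 344 ± 42.1 in eGFP mice, and they overlapped with each other in the other 3 groups but not in LRG1 mice at week 7. Tapbp, H2-Q6 and H2-T23 formed the next tier, and in eGFP mice at week 7 these 3 neighbours were not apart beyond their spread. H2-Q2, Nlrc5, Tap1 and Tap2 were lowest in every group. Tap1 was the seventh of the 10 in eGFP mice at week 7, at 14.2 ± 3.03, and the last in LRG1 mice at week 7, at 2.09 ± 0.54, where it overlapped with Tap2.

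The proportions among the parts also differed between libraries, and ratios within a library do not depend on how libraries are scaled. The ratio of H2-K1 to B2m counts was 0.118 to 0.131 in LRG1 mice and 0.201 to 0.217 in eGFP mice at week 7. At week 10 it was 0.115 to 0.129 in LRG1 mice and 0.139 to 0.219 in eGFP mice. The LRG1 libraries were below the eGFP libraries at both weeks, and these ratios were not tested. Heavy chain counts were also summed over 30 H2 class I genes. A read assigned to another of these copies stays in the sum, but a lost read does not, and the effect of lost reads was not tested. The sum was at 940.1 ± 56.5 CPM in LRG1 mice and 2893 ± 345 CPM in eGFP mice at week 7, and at 1230 ± 149 CPM in LRG1 mice and 1955 ± 274 CPM in eGFP mice at week 10 (SD, n = 4). H2-K1 and H2-D1 made up 73.1 to 77.9% of that sum in every library.

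In the eGFP group at week 10 the log2 ratio of H2-K1 to B2m was -2.30, -2.84, -2.19 and -2.69 in replicates 1 to 4. Replicates 1 and 3, which had the higher leukocyte and the lower adipocyte marker sums, had the higher ratios, close to those of eGFP mice at week 7. Their log2 ratios of H2-Q6 to B2m were -6.12, -6.23, -6.18 and -6.20 in replicates 1 to 4, without such a split and between those of LRG1 mice (-6.70 to -6.51 at week 10) and those of eGFP mice at week 7 (-5.48 to -5.34). The part of tissue make-up in these ratios, leukocyte content included, was not tested.

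The transporter subunits were out of step with each other. The ratio of Tap1 to Tap2 counts was 1.04 to 1.59 in LRG1 mice and 2.74 to 3.11 in eGFP mice at week 7. At week 10 it was 1.12 to 1.52 in LRG1 mice and 1.72 to 2.09 in eGFP mice. By contrast the ratio of Tap1 to Psmb9, its head to head neighbour, was 2.80 to 3.34 in LRG1 mice and 2.94 to 3.26 in eGFP mice at week 7, and the groups overlapped. At week 10 it was 2.54 to 3.61 in LRG1 mice and 2.58 to 2.94 in eGFP mice, overlapping again. The level difference of Psmb9 between the groups was therefore close to that of Tap1, with a log2 fold change of -2.82 (adjusted p = 1.6e-07) at week 7 and -1.12 (adjusted p = 0.0020) at week 10 by edgeR.

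**Figure D4:**
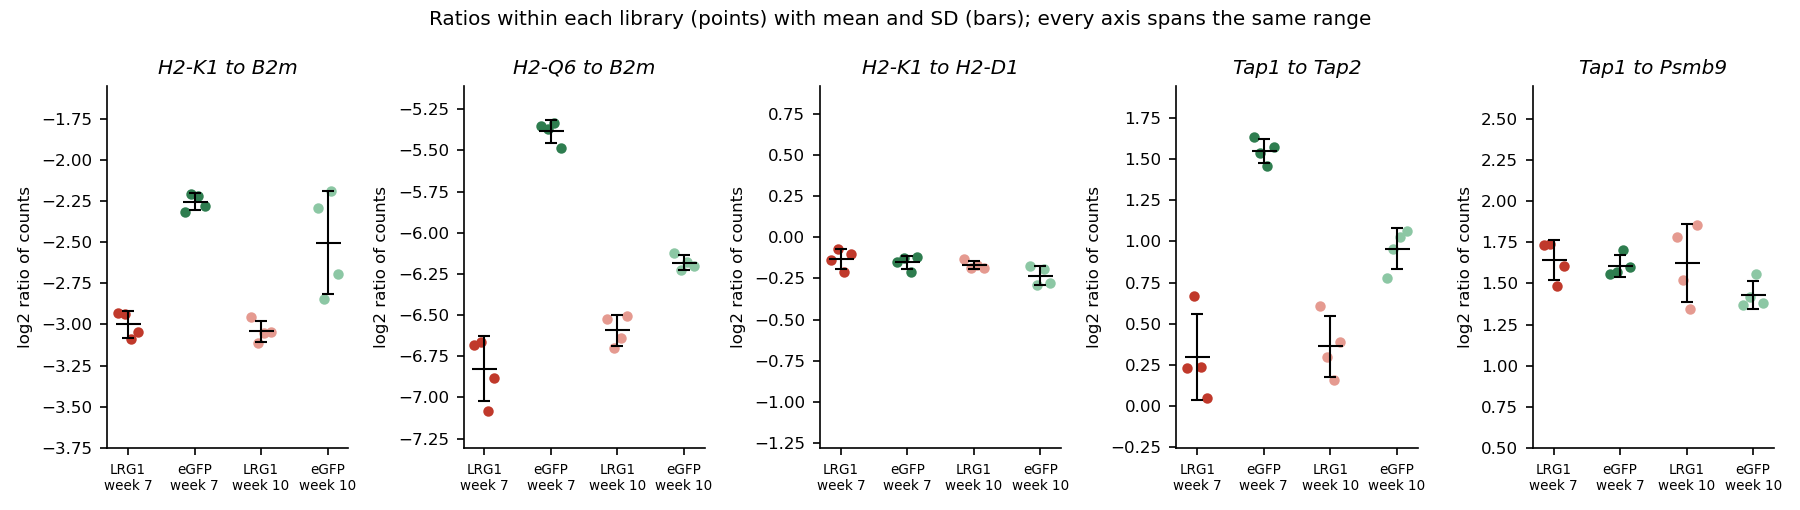
Log2 ratios of counts within each of the 16 libraries (points) with mean and SD of 4 mice (bars), every axis spanning the same range. H2-K1 to B2m, H2-Q6 to B2m and Tap1 to Tap2 were lower in LRG1 than in eGFP libraries at week 7, while H2-K1 to H2-D1 and Tap1 to Psmb9 overlapped between those groups.

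Between weeks, the eGFP mice changed. Week 10 eGFP mice were below week 7 eGFP mice in Tap1 by a log2 fold change of -1.49 (SE 0.18, adjusted p = 2.0e-04), in H2-Q6 by -1.11 (SE 0.12, adjusted p = 1.0e-04) and in Nlrc5 by -0.95 (SE 0.10, adjusted p = 8.9e-05). Tap2 at -0.90, H2-Q2 at -0.83 and Tapbp at -0.59 were called too. These 6 of 10 lower calls stand beside 1.51% of all tested genes called lower with age in eGFP mice. H2-T23 at -0.74 (adjusted p = 0.0113), H2-K1 at -0.55 (adjusted p = 0.017) and H2-D1 at -0.47 (adjusted p = 0.021) missed the threshold, and B2m at -0.31 (adjusted p = 0.18) did so by more. For 9 of the 10, all but B2m, the week 10 libraries lay below all week 7 libraries, as in 6.89% of all genes. Without eGFP replicates 1 and 3 of week 10, 9 of the 10 were called, beside 1146 lower calls among all 21872 genes tested in that fit.

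In LRG1 mice the change with age ran the other way and was not called. Week 10 LRG1 mice had log2 fold changes against week 7 LRG1 mice from 0.08 for Tapbp to 0.63 for H2-Q6 (SE 0.12, adjusted p = 0.10), with 0 of 10 called by edgeR, where 0.0048% of all genes were called higher. At an unadjusted p below 0.05, 8 of the 10 were higher, as against 1746 of all 20822 genes in either direction, and DESeq2 called 1, H2-Q6, while limma-voom called 0. Of all genes DESeq2 called 32 higher in that comparison. For 6 of the 10 the week 10 libraries lay above all week 7 libraries (3.64% of all genes).

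The difference between LRG1 and eGFP mice was itself compared between the weeks. The log2 difference of week 10 minus that of week 7 was 1.74 for H2-Q6 (SE 0.17, adjusted p = 3.6e-04), 1.82 for Tap1 (SE 0.25, adjusted p = 0.0014), 1.18 for Tap2 (SE 0.18, adjusted p = 0.0034), 1.16 for Nlrc5 (SE 0.14, adjusted p = 5.4e-04), 1.16 for H2-Q2 (SE 0.13, adjusted p = 4.7e-04) and 0.67 for Tapbp (SE 0.11, adjusted p = 0.0064). A positive value means that the LRG1 difference was less negative at week 10. These 6 of 10 calls stand beside 0.307% of all tested genes called in that direction. H2-Q6 had the smallest p of all 20822 genes, H2-Q2 the fifth smallest and Nlrc5 rank 12. H2-T23 at 1.11, H2-K1 at 0.92 and H2-D1 at 0.88 had adjusted p between 0.013 and 0.023, B2m at 0.72 had 0.082, and DESeq2 called all 10, beside 234 of all 20822 genes called in that direction. Without eGFP replicates 1 and 3 of week 10, 9 of the 10 were called, with H2-K1 at 1.06, H2-D1 at 0.96 and H2-T23 at 1.21 added. That fit called 284 of all 21872 genes in that direction. With 1 library left out, Tapbp lost its call in 13 of 16 cases and Tap2 in 6 of 16, with adjusted p of at most 0.025 and 0.012. The comparisons share libraries: the eGFP mice of week 7 enter the difference at that week, the eGFP comparison of weeks and the change, so the 3 are not separate evidence.

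The genes around these 10 were counted from lists of 49 other class I pathway genes, 48 of them tested. At week 7, 31 were called lower and 1 higher in LRG1 mice, beside 10.7% and 7.37% of all tested genes, and at week 10, 13 lower and 1 higher, beside 5.24% and 3.66%. The median log2 fold change of the 48 was -0.97 at week 7 and -0.39 at week 10. At week 10 the count of 14 was 5 without eGFP replicates 1 and 3, 6 without LRG1 replicate 4, 7 without eGFP replicate 3, 8 without LRG1 replicate 3, 9 without LRG1 replicate 1, and 1 with only the 8 libraries of that week. Calls over all genes were also fewer in each of these fits.

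Of the other heavy chains and class I-like molecules, 9 of 13 were called lower in LRG1 than in eGFP mice and 1 higher at week 7. At week 10, 5 were called lower and 1 higher (2 and 1 without eGFP replicates 1 and 3). H2-Q4, H2-Q10, H2-Q7 and H2-Q1, all of the Q region, led the list at week 7 with log2 fold changes of -1.87, -1.57, -2.13 and -1.46. The gene called higher was Hfe, a class I-like molecule that binds the transferrin receptor and regulates iron uptake and does not present peptides, at 197 ± 13.8 CPM in LRG1 mice and 97.5 ± 10.1 CPM in eGFP mice at week 7 (SD, n = 4), with a log2 fold change of 1.01 (adjusted p = 4.9e-06) at week 7 and 0.84 (adjusted p = 7.8e-04) at week 10 by edgeR. Hfe was named because it was the single gene called in that direction, after its values were seen.

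All 5 genes of the immunoproteasome and its activator were called lower at week 7 in LRG1 than in eGFP mice. Psmb8, Psmb9 and Psmb10, the catalytic subunits that replace the standard ones, had log2 fold changes of -2.71, -2.82 and -1.81, and Psme2, a subunit of the activator PA28, of -0.96. At week 10, 3 of the 5 were called: Psmb8 at -1.01, Psmb9 at -1.12 and Psmb10 at -0.53. Psmb8 and Psmb9 were also called without eGFP replicates 1 and 3, at -0.95 and -1.26. Of the 6 genes of loading and trimming, 2 were called lower in LRG1 mice at week 7. These were Tapbpl, the tapasin-related editor, at -1.28, and Erap1, the peptide trimming enzyme, at -0.95, and at week 10 none of the 6 was called by edgeR, where 5 were lower at an unadjusted p below 0.05, 4 were called by DESeq2 and 0 by limma-voom. Over all 20822 genes at week 10, 7634 had such an unadjusted p by edgeR, in either direction. DESeq2 called 1978 lower and 1587 higher. The general chaperones Calr at -0.43 and Pdia3 at -0.32 did not pass at week 7.

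Of 8 genes of signalling from interferon-gamma to Nlrc5, 6 were called lower at week 7 in LRG1 than in eGFP mice and 0 were called at week 10 by edgeR, where 6 were lower at an unadjusted p below 0.05, 3 were called by DESeq2 and 0 by limma-voom. Over all 20822 genes at week 10, 7634 had such an unadjusted p by edgeR, in either direction. DESeq2 called 1978 lower and 1587 higher. Ifng was at 0 to 0.0861 CPM in LRG1 mice and at 0.692 to 1.88 CPM in eGFP mice at week 7. Irf1, a transcription factor that interferon-gamma induces, had a log2 fold change of -1.76 (adjusted p = 4.1e-06) by edgeR, and Irf2 of -0.73. At week 10 Irf1 had a log2 fold change of -0.68 (adjusted p = 0.012) by edgeR, which did not pass.

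Of 9 promoter partners of NLRC5 and its class II counterpart, 2 were called lower in LRG1 mice at week 7: Ciita, the transactivator of class II genes, at -2.69 (adjusted p = 5.0e-08) and Creb1, which binds the X2 box, at -0.34 (adjusted p = 0.0074). Nfya, at -0.76 (adjusted p = 0.019), did not pass at that week. The subunits of the RFX complex, to which NLRC5 is recruited, were close to level, with log2 fold changes of -0.15 for Rfx5, 0.04 for Rfxap and 0.03 for Rfxank at week 7 in LRG1 against eGFP mice, and none passed. At week 10 Nfya, a subunit of the complex on the Y box, was called at -0.95 (adjusted p = 0.0096) by edgeR but not by limma-voom, while Nfyb at 0.09 and Nfyc at -0.06 were not. Of the 9 genes, 4 were lower at week 10 at an unadjusted p below 0.05 by edgeR. Of all 20822 genes, 7634 had such a p, in either direction. DESeq2 called 3 of the 9 and limma-voom 0. Over all genes DESeq2 called 1978 lower and 1587 higher at that week. Nfya was at 9.42, 11.4, 10.01 and 12.8 CPM in LRG1 mice, against 29.2, 13.3, 28.2 and 13.6 CPM in eGFP mice at that week. Only eGFP replicates 1 and 3 lay far above the LRG1 libraries, and without them its log2 fold change was -0.30 (adjusted p = 0.31) by edgeR. That of Ciita without them was -0.80 (adjusted p = 0.012) by edgeR, which did not pass.

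In the list named for receptors that read class I molecules, all 7 genes were lower in LRG1 mice at week 7. Whether each listed gene, such as Lilrb4a, binds class I molecules was not examined. Klrk1, an activating receptor of natural killer cells, had a log2 fold change of -2.42, and Klrc1 and Klrd1, which form the receptor for Qa-1, had -2.78 and -1.68. Cd8a, the coreceptor of class I-restricted T cells, was at 0.111, 1.32, 0.162 and 0.172 CPM in LRG1 mice, against 15.1, 12.6, 7.41 and 11.6 CPM in eGFP mice. At week 10, 4 of the 7 were called: Cd8a at -2.68, Cd8b1 at -2.72, and the myeloid inhibitory receptors Pirb at -1.78 and Lilrb4a at -1.84. Pirb was at 42.7, 58.9, 47.98 and 43.8 CPM in LRG1 mice, against 262, 64.9, 249 and 89.7 CPM in eGFP mice at that week. Lilrb4a was at 13.5, 17.9, 11.6 and 14.5 CPM in LRG1 mice, against 90.8, 22.3, 69.4 and 24.1 CPM in eGFP mice. In both genes eGFP replicates 1 and 3 stood far above the rest. Without them 0 of the 7 receptors were called by edgeR, with 4 at an unadjusted p below 0.05, and the log2 fold change was -0.68 for Pirb (adjusted p = 0.05007) and -0.69 for Lilrb4a (adjusted p = 0.033). In that fit 4126 of all 21872 genes had an unadjusted p below 0.05, in either direction.

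**Figure D5:**
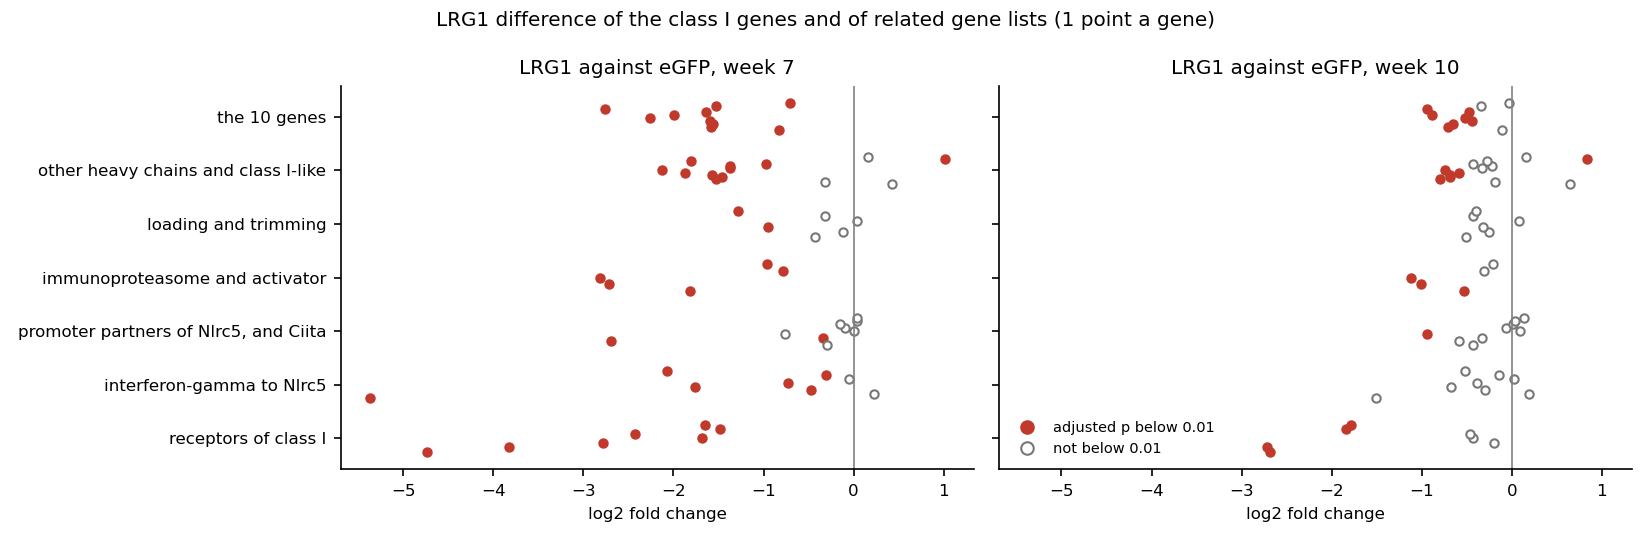
Log2 fold change of LRG1 against eGFP mice at week 7 (left) and week 10 (right), 1 point a gene, for the 10 genes and 6 lists of related genes, filled where the adjusted p was below 0.01. The immunoproteasome, receptor and heavy chain lists lay mostly below 0 at week 7, and the promoter partners lay around 0 apart from Ciita.

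Markers of leukocytes, T cells and macrophages were lower in LRG1 mice too. The summed level of 5 pan-leukocyte markers was 231 to 329 CPM in LRG1 mice and 743 to 918 CPM in eGFP mice at week 7, and 244 to 332 CPM in LRG1 mice and 415 to 1049.6 CPM in eGFP mice at week 10. All 5 of these markers were called lower in LRG1 mice at both weeks. Without eGFP replicates 1 and 3, 0 of the 5 were called at week 10 by edgeR, with log2 fold changes of -0.77 to -0.60 and all 5 at an unadjusted p below 0.05. In that fit 4126 of all 21872 genes had such a p, in either direction. The sum of 3 T cell markers was 0.309 to 2.36 CPM in LRG1 mice and 13.2 to 24.2 CPM in eGFP mice at week 7, and 1.17 to 2.91 CPM in LRG1 mice and 5.09 to 6.64 CPM in eGFP mice at week 10. That of 5 macrophage markers was 935 to 994 CPM in LRG1 mice and 1869 to 2264 CPM in eGFP mice at week 7, and 824 to 1079 CPM in LRG1 mice and 1139 to 2164 CPM in eGFP mice at week 10. All 3 T cell and all 5 macrophage markers were called lower at week 7, and 2 and 4 of them at week 10, which became 0 (3 at an unadjusted p below 0.05) and 2 without eGFP replicates 1 and 3. None of these markers was at 0 in all libraries of a group. Adipocyte markers ran the other way, with a sum of 8985 to 11079 CPM in LRG1 mice and 5443 to 6488 CPM in eGFP mice at week 7, and 2 of the 6 were called higher. Also at week 7, the 3 endothelial markers summed to 296 to 412 CPM in LRG1 mice and 169 to 224 CPM in eGFP mice, and all 3 were called higher. Of the 3 fibroblast and progenitor markers 1 was called higher, with sums of 1224 to 1428 CPM in LRG1 mice and 882 to 1018 CPM in eGFP mice. Of 3 natural killer cell markers 1, the cytotoxic protein gene Prf1, was called lower, with sums of 1.77 to 3.86 CPM in LRG1 mice and 6.02 to 15.3 CPM in eGFP mice. Of 4 dendritic cell markers Xcr1 was called lower and Cd209a higher, and the sums overlapped at 20.3 to 22.95 CPM in LRG1 mice and 20.7 to 24.6 CPM in eGFP mice. The 3 B cell markers, at sums of 1.24 to 6.45 CPM in LRG1 mice and 1.61 to 8.20 CPM in eGFP mice, had log2 fold changes of -0.74 to -0.33, and the 2 mesothelial markers, at sums of 69.3 to 110.3 CPM in LRG1 mice and 39.6 to 63.5 CPM in eGFP mice, had 0.70 and 0.75. None of these 5 was called by edgeR, DESeq2 or limma-voom, and the 2 mesothelial ones had an unadjusted p below 0.05. At week 7, 8803 of all 20822 genes had such a p by edgeR, in either direction.

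Counts of H2-K1, Nlrc5 and B2m, and of no other member, were also set against Ptprc, the leukocyte surface protein CD45, within each library. At week 7 Ptprc had a log2 fold change of -1.66 in LRG1 against eGFP mice by edgeR. Tap1 at -2.76, H2-Q6 at -2.26 and H2-T23 at -1.996 were more negative. The others of the 10 genes were less so, from -1.63 for Nlrc5 to -0.70 for Tapbp. The ratio of H2-K1 to Ptprc was 3.01 to 4.14 in LRG1 mice and 3.01 to 3.37 in eGFP mice at week 7, and the groups overlapped. The ratio of Nlrc5 to Ptprc, at 0.20 to 0.296 in LRG1 mice and 0.196 to 0.254 in eGFP mice, overlapped too. The ratio of B2m to Ptprc was 23.02 to 35.3 in LRG1 mice and 14.01 to 16.6 in eGFP mice, higher in every LRG1 library. At week 10 the ratio of Nlrc5 to Ptprc was 0.241 to 0.275 in LRG1 mice and 0.0985 to 0.238 in eGFP mice, and that of B2m to Ptprc 29.3 to 39.5 in LRG1 mice and 9.23 to 25.7 in eGFP mice. Both were higher in every LRG1 library. For Nlrc5 the log2 ratios were -3.34, -2.07, -3.23 and -2.16 in eGFP replicates 1 to 4, against -2.05 to -1.86 in LRG1 mice. For B2m they were 3.21, 4.67, 3.33 and 4.68 in eGFP replicates 1 to 4, against 4.87 to 5.30 in LRG1 mice. In both, eGFP replicates 2 and 4 lay close to the LRG1 range and replicates 1 and 3 far below it. The ratio of H2-K1 to Ptprc, at 3.38 to 4.77 in LRG1 mice and 1.88 to 3.98 in eGFP mice, overlapped. The part of leukocyte content in the differences of the 10 genes was not tested.

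Across the 16 libraries the 10 genes moved together. The 45 pairs had a Pearson correlation of log2 CPM of 0.824 to 0.996 with a median of 0.956, and a median of 0.660 once group means were removed. These are descriptions over 16 libraries that share the treatment and, in part, their leukocyte content. Among the genes most like Nlrc5 over the libraries were Parp10 (r = 0.982), H2-DMa (0.981), Gbp2 (0.981) and Gbp8 (0.981). Those most like B2m were Samd9l (0.947), Gm19585 (0.944), Dtx3l (0.942), H2-T10 (0.939) and Cd96 (0.937). With group means removed, Gbp8 was at 0.808 to Nlrc5 and H2-T10 at 0.902 to B2m.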

How the data were processed

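Counts per gene of eWAT RNA were analysed from 16 libraries, 4 mice a group. The deposited counts were made by the authors by read trimming (Cutadapt), alignment to mm10 (STAR) and gene counting (featureCounts), without normalization. Tool versions, the strand setting and the handling of reads with several matches are not given in the sources used here, so reads of overlapping genes and of near-identical H2 genes may be shared or lost. Of 55573 Ensembl genes, 55394 were matched to a symbol.

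Tests used edgeR 4.0.16 in R 4.3.3, with TMM scaling, the filterByExpr filter and a quasi-likelihood F test, on 1 model that held the 16 libraries and 1 coefficient per group. The filter kept 20822 genes, TMM factors were 0.847 to 1.10, the common coefficient of biological variation was 0.203, and a call needed an adjusted p (Benjamini-Hochberg) below 0.01. A standard error was the size of the log2 value divided by the root of F. On simulated data of the week 7 comparison with 20822 genes, edgeR recovered 6 of 67 genes at a fold of 1.5, 44 of 67 at a fold of 2 and 66 of 66 at a fold of 4, and made 3 false calls. The simulation gave all genes the same spread and changed few of them, unlike the data.

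The 10 genes and all lists were chosen with earlier results of these data known. The 10 are always named. Values of 1 gene of the lists are not reported here. Of each pathway list, up to 4 genes are named per comparison, those of smallest adjusted p, and others, such as members near 0, were chosen after their values were seen. Mice are separate animals, but P values measure the spread between them under 1 assignment by cage. Library numbers were not used as pairs: over 24 pairs that shared a number across groups, deviations from the group means correlated with a median of -0.0126 (-0.200 to 0.142).

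Alternatives were DESeq2 1.42.0, limma-voom (limma 3.58.1), fits of the 8 libraries compared, other scalings and filters, removal of mitochondrially encoded genes, robust empirical Bayes, an adjusted p below 0.05, the replicate number as a block and leaving out each library. Leaving out eGFP replicates 1 and 3 of week 10 was chosen after seeing the data.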

Additional observations from a re-analysis of the deposited data

Results flagged for a closer look

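The difference between LRG1 and eGFP mice changed between the weeks by an interaction test in edgeR for 6 of the 10 genes, with a log2 difference of week 10 minus week 7 of 1.16 for Nlrc5, 1.16 for H2-Q2, 1.74 for H2-Q6, 1.82 for Tap1, 1.18 for Tap2 and 0.674 for Tapbp. Tapbp in LRG1 mice at week 7 was at 133 CPM in replicate 4, far from the other 3 libraries of its group (114 to 116 CPM). It was the single such library among 40 groups of 4 examined, and chance gives about 1 in 20.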

How the results depend on the processing

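All 10 genes kept their call at week 7 under every alternative, with 10 called whichever library was left out. At week 10 the count of the 10 called ranged over 1 to 7 with 1 library left out, was 0 with only the 8 libraries of that week, where the 7 genes had adjusted p of 0.023 to 0.046, and 0 without eGFP replicates 1 and 3. Over all genes, 10 were called lower with only those 8 libraries and 74 without eGFP replicates 1 and 3, in place of 1092. Leaving out 1 library gave 6 to 8 for week 10 against week 7 in eGFP mice, 0 to 0 in LRG1 mice and 4 to 7 for the change between weeks, and DESeq2 gave 1 in LRG1 mice and 10 for the change. Of all genes DESeq2 called 32 higher with age in LRG1 mice and 234 higher for the change. For the 48 other pathway genes, 1 library left out gave 27 to 30 at week 7 and 6 to 21 at week 10, where 26 passed at an adjusted p below 0.05, 23 by DESeq2, 1 with only the 8 libraries and 5 without eGFP replicates 1 and 3. Over all 20822 genes at week 10, 2615 lower and 2146 higher passed at an adjusted p below 0.05. DESeq2 called 1978 lower and 1587 higher. Tapbp at week 10 turned positive under upper quartile scaling (log2 fold change 0.00091), without LRG1 replicate 2 (0.00015) and without eGFP replicate 4 (0.0268), in a range of -0.0713 to 0.0268 with 1 library left out, and was never called there. The replicate block, for numbers that are not known to pair mice, gave 10 at week 7, 5 at week 10, 6 in eGFP mice, 0 in LRG1 mice and 4 for the change, and 30 and 12 for the pathway genes at weeks 7 and 10. With library size alone the median log2 fold change of all genes moved to -0.15 at week 7, -0.12 for eGFP mice with age and 0.14 for the change, and the calls at week 7 were 3636 lower and 341 higher in place of 2221 lower and 1534 higher. Upper quartile scaling gave 1957 lower and 1993 higher. In the same fits limma-voom called 639 lower and 804 higher at week 10, against 1092 and 762 by edgeR. The cause of these shifts was not tested. On simulated data few genes at a fold of 1.5 were recovered (6 of 67), so differences of that size can be missed. The simulation held the same spread for all genes and few changed genes, so it gives no rate for the 10. Of these, H2-Q2 was called at week 10 at 1.35-fold lower.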
